A study of Mus musculus with 36 samples.

Results

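White adipose tissue of wild type male C57Bl/6 mice was compared at 24 and 5 months of age. The samples were selected by their titles as the adipose, wild type samples of both ages, which gave 6 of the 36 arrays of the series. The 3 arrays of 24 months carried 1 RNA mixture made from 5 mice, and the 3 arrays of 5 months carried 1 RNA mixture made from 6 other mice, each an equal-amount mixture of total RNA. The series also holds liver and skeletal muscle, and mice with 1 functional copy of Myc (Myc+/-), whose adipose pools were made from 5 mice at 5 months and 8 mice at 24 months. The same animals of a cohort gave all 3 tissues. The mice were kept in a specific pathogen-free barrier facility on autoclaved chow given freely, with light and dark phases of equal length. The fat depot and the hour of tissue collection were not given in the sources used here. The wild type mice served in the study as controls of the Myc+/- mice, and the 2 ages show how the adipose transcript profile of these controls differed with age.

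White adipose tissue stores triglyceride in adipocytes and releases fatty acids and hormones such as leptin and adiponectin. It also holds vessels, fibroblast-like progenitors, macrophages and lymphocytes. In mice, ageing of visceral fat is known for a gain of immune cells and for lower expression of genes of lipid synthesis. In bulk RNA, more cells of a type and more transcript per cell cannot be told apart.

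The arrays measured 35556 probe sets, of which 21789 carried 1 gene symbol and represented 19938 genes. Array medians in wild type adipose ran from 7.05 to 7.14 on the log2 scale, and the median SD of a gene over the 3 arrays of a pool was 0.09 at both ages. Adiponectin (Adipoq) read 13.89, 13.74 and 13.91 on the 5-month arrays and 13.68, 13.68 and 13.47 on the 24-month arrays, and perilipin 1 (Plin1), the coat protein of the fat droplet, read 13.41 to 13.51 and 13.12 to 13.16. Both are bright at both ages, so the labelled tissue carried the transcripts that define it. Because each age is 1 pool, all calls below compare 2 RNA mixtures with array-to-array error and say nothing of the spread between mice.

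A gene was called higher or lower when limma gave an adjusted p under 0.05 (Benjamini-Hochberg over all probe sets with 1 symbol) and the difference was at least 1.5-fold. By this rule 829 genes rose with age, 4.16% of those measured, and 374 fell, 1.88%, or 6.03% in either direction. The change was at least 2-fold for 319 that rose and 69 that fell, and at least 4-fold for 42 and 2. The median change of all genes was -0.03 (log2). These shares and this median are the background for every list in wild type adipose below. A list count near its share says nothing particular of that list. The arrays of both pools did not overlap for 1196 of the 1203 called genes. That separation alone was common, since it held for 38.0% of all genes.

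**Figure D1:**
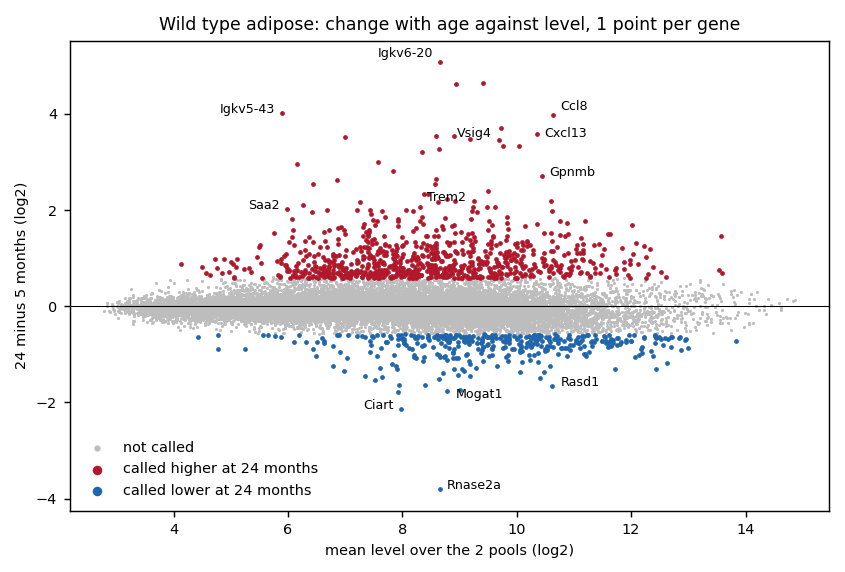
Change in wild type adipose from 5 to 24 months (vertical axis, log2) against the mean level of the 2 pools (horizontal axis, log2), 1 point per gene. Red points are the 829 genes called higher and blue points the 374 called lower. The largest rise, Igkv6-20, is 5.08 and the largest fall, Rnase2a, is -3.80.

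Antibody transcripts made up most of the 20 largest rises. The kappa variable segment gene Igkv6-20 read 5.96, 6.31 and 6.09 at 5 months and 11.27, 11.32 and 11.01 at 24 months, a change of 5.08 ± 0.13 (log2, SE of the array fit), or 33.8-fold. Another 6 kappa variable segment genes rose by 2.82 to 4.64. Variable segments share sequence, so a probe set of this family can read several of its members. The complement receptor gene Vsig4, a marker of resident phagocytes, read 7.82, 7.99 and 8.09 at 5 months and 11.41, 11.44 and 11.40 at 24 months (3.45 ± 0.09, 11-fold). Fcgr4, an activating receptor for IgG, rose by 3.21 ± 0.13, and Rgs1, a brake on chemokine receptor signalling, by 3.00 ± 0.15. The probe set annotated as Kcnma1, a potassium channel gene, rose by 3.51, but another probe set of the same symbol changed by -0.16, so this name is uncertain.

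The 20 largest falls were of other kinds. Rnase2a, an eosinophil ribonuclease gene, read 10.50, 10.60 and 10.57 at 5 months and 6.86, 6.72 and 6.68 at 24 months, a change of -3.80 ± 0.19 (14-fold lower). It belongs to a family of close copies whose signals on an array can mix. Mogat1 and Mogat2, which encode monoacylglycerol acyltransferases that re-esterify fat, fell by 1.76 and 1.53. Gys2, the glycogen synthase of liver and fat, fell by 1.64, Grb14, an inhibitor of the insulin receptor, by 1.5, and Rasd1, a small GTPase induced by steroid hormones, by 1.65. Others were the acute-phase gene Orm3 (-1.78), the transporter of GABA and taurine Slc6a13 (-1.37), the retinal dehydrogenase family gene Aldh1a7 (-1.48), and Syt12 (-1.64) and Prr32 (-1.75). The clock genes Ciart, Dbp and Bhlhe41 also belonged to the 20 and are described with their list.

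**Figure D2:**
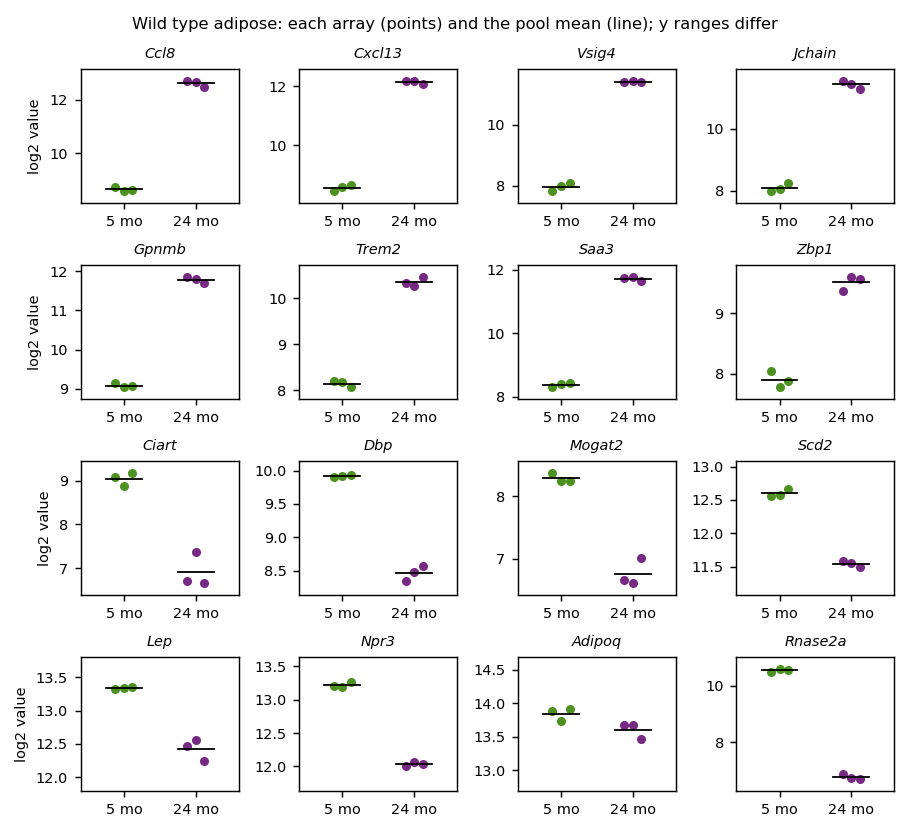
Log2 value of 16 genes on each of the 6 wild type adipose arrays (green points 5 months, purple points 24 months), with the mean of each pool as a line; the vertical range differs between panels. The arrays of the pools lie apart in every panel, by a small gap only for Adipoq, whose lowest 5-month array is 13.74 and highest 24-month array 13.68. Such separation held for 38.0% of all genes.

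Macrophages take up lipid and dying cells in fat. Of 22 macrophage markers, 20 rose and 0 fell, with a median of 1.22 beside -0.03 for all genes. Adgre1, which encodes the F4/80 antigen, read 10.10, 10.09 and 10.22 at 5 months and 11.72, 11.67 and 11.52 at 24 months (1.5 ± 0.07, 2.83-fold). Cd68, a lysosomal glycoprotein, rose by 1.68, the IgG receptor gene Fcgr1 by 2.18, the cathepsin gene Ctss by 1.74, Ly86 by 1.76, the scavenger receptor gene Msr1 by 1.66 and Csf1r, the receptor for the macrophage growth factor CSF1, by 0.91. The markers that missed the fold were Cx3cr1 (0.52) and Ccr2 (0.39), the chemokine receptors of monocytes. The mean log2 level over the 22 markers was 9.94 to 9.95 on the 5-month arrays and 11.16 to 11.19 on the 24-month arrays. The technical arrays of both pools did not overlap in this mean.

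Genes of lipid-associated macrophages, the TREM2-positive cells that surround dying adipocytes, included some of the largest changes. Of 14 measured, 9 rose and 0 fell, with a median of 0.95. Trem2, the lipid-sensing receptor, read 8.20, 8.18 and 8.07 at 5 months and 10.32, 10.25 and 10.46 at 24 months (2.20 ± 0.09, 4.58-fold). Gpnmb, a lysosomal glycoprotein, read 9.13, 9.04 and 9.07 against 11.86, 11.81 and 11.69 (2.70 ± 0.10), and Atp6v0d2, a subunit of the vacuolar proton pump, read 7.24, 7.62 and 7.47 against 10.95, 10.90 and 10.93 (3.48 ± 0.11). No array of one age reached the range of the other in these 3 genes, a separation that 38.0% of all genes showed. Mmp12, the macrophage elastase, rose by 1.74, the lysosomal lipase gene Lipa by 1.19 and the tetraspanin gene Cd9 by 0.66. The 5 that did not pass were Plin2 (0.36), Ctsd (0.18), Dcstamp (0.06), Cd36 (-0.18) and Acp5 (-0.42), of which Plin2 and Cd36 are also expressed by adipocytes.

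Of 13 genes of tissue-resident macrophages, 8 rose and 1 fell, with a median of 0.76. Clec10a, a lectin receptor, read 8.84, 8.99 and 9.31 at 5 months and 10.72, 10.64 and 10.58 at 24 months (1.6 ± 0.14). The ficolin gene Fcna rose by 1.16, the mannose receptor gene Mrc1 by 0.99, Cd209f by 0.91, the folate receptor gene Folr2 by 0.86 and the hyaluronan receptor gene Lyve1 by 0.76. Cd163, the haemoglobin scavenger receptor, changed by 0.20 and did not pass. The lectin gene Mgl2 fell by 0.63, a call that was lost without 5-month array 3.

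Transcripts of B lymphocytes and antibody-secreting plasma cells rose almost throughout: 17 of 21 markers passed in this direction and 0 in the other (median 1.04). Jchain, which joins IgA and IgM into multimers, read 7.98, 8.06 and 8.26 at 5 months and 11.55, 11.46 and 11.28 at 24 months (3.33 ± 0.13, 10.1-fold). The heavy chain constant genes Igha and Ighm each rose by 3.54, from 6.74, 6.88 and 6.83 to 10.30, 10.42 and 10.34 for Igha, and from 7.17, 7.03 and 7.18 to 10.72, 10.68 and 10.61 for Ighm. These levels at 24 months were all far above those at 5 months. The B cell receptor subunits Cd79a and Cd79b rose by 1.91 and 1.39, and Ms4a1, which encodes CD20, by 1.58. The 4 markers that did not pass were Blk (0.47), Pax5 (0.55), Tnfrsf13c (0.19) and Cr2 (0.17).

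Of 11 chemokines and receptors that organize lymphoid tissue, 6 rose and 0 fell. Cxcl13, the attractant of B cells, read 8.43, 8.58 and 8.66 at 5 months and 12.17, 12.19 and 12.07 at 24 months, a change of 3.59 ± 0.09 (12.0-fold). Ccl19, which draws T cells and dendritic cells, rose by 1.14, its receptor Ccr7 by 0.90, and Cxcr5, the receptor for CXCL13, by 0.79. The arrays of the ages overlapped for Cxcr5.

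Of 25 T and NK cell markers, 16 rose and 0 fell (median 0.87). The CD3 chains Cd3e, Cd3d and Cd3g, part of the T cell receptor, rose by 0.78, 0.87 and 1.70. Il7r, the receptor that sustains memory T cells, read 7.23, 7.30 and 7.14 at 5 months and 9.49, 9.59 and 9.57 at 24 months (2.33 ± 0.10, 5.01-fold), and Cd8b1, a chain of the CD8 co-receptor, read 6.70, 6.67 and 6.59 against 8.63, 8.50 and 8.75 (1.97 ± 0.11). Both genes were separated at every array, as were 38.0% of all genes. The chemokine gene Ccl5 and the cytotoxic granule gene Nkg7 each rose by 2.18. Members that did not pass spanned -0.43 to 0.57.

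Of 25 inflammatory cytokines and chemokines, 13 rose and 0 fell (median 0.61). Ccl8, a monocyte attractant, had the largest change, from 8.73, 8.57 and 8.62 to 12.71, 12.66 and 12.47 (3.97 ± 0.11, 15.7-fold). Ccl3, which attracts monocytes and T cells, rose by 2.65 and Cxcl16, a scavenger receptor and chemokine, by 1.28. Il1b rose by 0.72 and Tnf by 0.65, while Il6 read 0.40 higher and missed the fold. The call for Tnf was lost without 5-month array 3, where its change was 0.52. Cxcl13 and Ccl5, given above, also belong to this list.

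Of 14 neutrophil and monocyte genes, 7 rose and 0 fell, or 4 rose when dim genes were left out. S100a9, a calcium-binding protein of granulocytes, rose by 1.82, while its partner S100a8 changed by 0.37 and did not pass. Cxcr2, the receptor that guides neutrophils, rose by 1.34, Csf3r, the G-CSF receptor, by 1.03, the collagenase gene Mmp8 by 0.99 and the granule protein gene Ngp by 0.90. Lcn2, which binds bacterial siderophores and is made by adipocytes as well, rose by 1.5. Of 16 antigen presentation genes, 5 rose and 0 fell. These were the immunoproteasome genes Psmb8 (1.02) and Psmb9 (0.77), the peptide transporter gene Tap1 (0.86) and the costimulatory genes Cd86 (0.83) and Cd83 (0.92). The class II genes H2-Aa, H2-Ab1 and H2-Eb1 read 0.46, 0.50 and 0.47 higher and did not reach 1.5-fold.

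Of 18 complement and acute-phase genes, 9 rose and 1 fell, or 2 without 24-month array 2. Saa3, the serum amyloid A of fat and macrophages, read 8.30, 8.39 and 8.43 at 5 months and 11.72, 11.77 and 11.64 at 24 months (3.34 ± 0.12, 10.1-fold). Saa2, mainly a liver transcript, read 4.51, 5.18 and 5.22 against 6.74, 6.97 and 7.26 (2.02 ± 0.18). The pentraxin gene Ptx3 rose by 0.84 and the complement gene C4b by 0.61, while C2 (-0.05) and Cfb (0.49) did not pass. C4b read 0.55 with the arrays centred on their medians and 0.57 with the adipose arrays normalized again, and was not called in either. The acute-phase glycoprotein gene Orm1 fell by 0.94. Hepatocyte markers also read higher in the 24-month pool, as given below, and their part in these values was not tested.

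Interferon response genes act in antiviral defence, and many carry the interferon-stimulated response element (ISRE) in their promoters. Of 24 such genes, 16 rose and 0 fell (median 0.73). Zbp1, a sensor of Z-form nucleic acid, read 8.05, 7.78 and 7.88 at 5 months and 9.36, 9.60 and 9.56 at 24 months (1.6 ± 0.11, 3.04-fold). Ifit1, which blocks translation of uncapped viral RNA, read 8.05, 8.06 and 8.19 against 9.45, 9.49 and 9.40 (1.35 ± 0.09). The arrays of both genes were apart, as for 38.0% of all genes. Oasl2 and the GTPase gene Iigp1 also rose by 1.35, the oligoadenylate synthetase gene Oas2 by 1.27 and Irf7, the factor that amplifies interferon production, by 1.05, whereas Ifit2 changed by 0.46 and did not pass.

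The promoters of the interferon genes that rose were searched on both strands for the core of the ISRE. The core was taken as GAAA, any 2 bases and GAAA, in windows of 250 bases before to 50 bases after the RefSeq start (GRCm38.p6). A window was found for 10 of the 16 genes, and 5 of the 10 (50%) held a match, against 3.99% of 27025 genes. The list was chosen for interferon response, so a share above that of all genes does not bear on the change with age. Members of the list that did not rise were not searched. The windows of Ifit1 at chr19:34640639-34640938 (plus strand) and Irgm1 at chr11:48871371-48871670 (minus strand) are shown because they belong to the members with matches that changed most, with the letters of each match in capitals. Ifit1 has 2 matches and Irgm1 has 2 that overlap.
Ifit1: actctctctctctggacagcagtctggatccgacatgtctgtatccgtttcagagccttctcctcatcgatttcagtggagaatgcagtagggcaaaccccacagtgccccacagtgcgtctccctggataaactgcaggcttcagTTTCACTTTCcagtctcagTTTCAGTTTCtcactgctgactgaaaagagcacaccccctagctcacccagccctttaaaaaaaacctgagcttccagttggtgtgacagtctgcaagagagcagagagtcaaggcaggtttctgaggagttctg
Irgm1: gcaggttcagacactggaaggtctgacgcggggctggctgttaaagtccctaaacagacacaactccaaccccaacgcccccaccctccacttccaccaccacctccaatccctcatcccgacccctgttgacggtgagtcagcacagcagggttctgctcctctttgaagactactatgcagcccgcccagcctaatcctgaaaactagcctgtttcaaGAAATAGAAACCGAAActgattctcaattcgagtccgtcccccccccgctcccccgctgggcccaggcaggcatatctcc
Irgm1, an immunity-related GTPase gene, rose by 1.12 ± 0.06, from 8.37 to 8.40 on the 5-month arrays to 9.42 to 9.57 on the 24-month arrays. A match of letters is a description of the sequence and does not show binding.

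**Figure D3:**
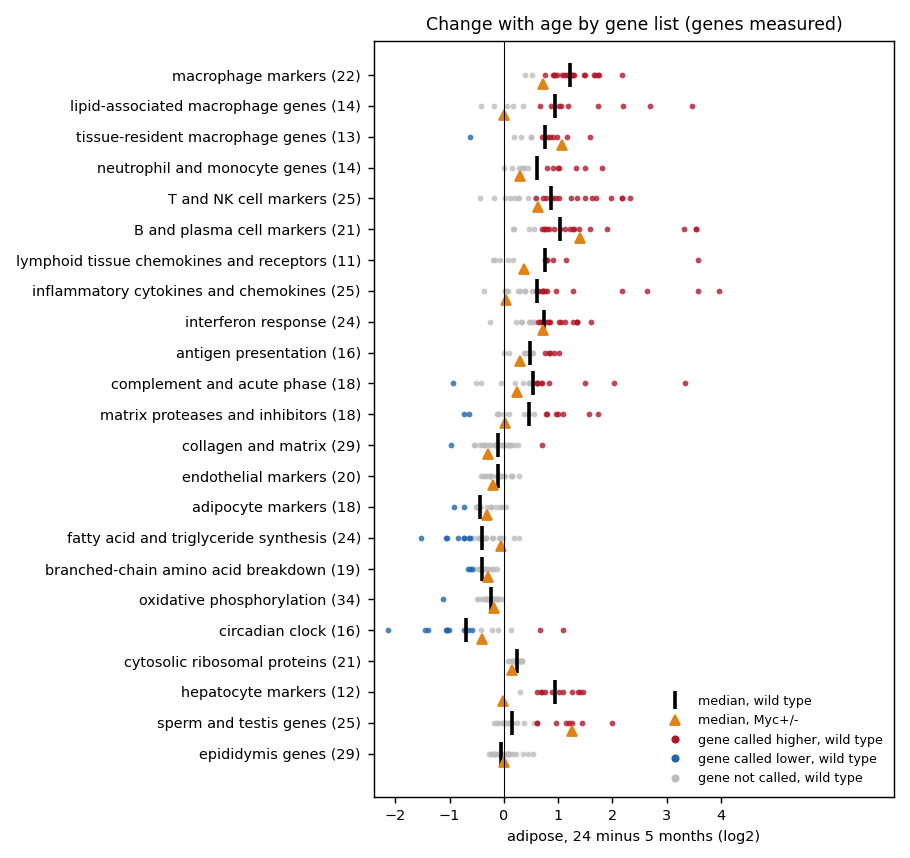
Change from 5 to 24 months (horizontal axis, log2) for the genes of 23 lists in wild type adipose, 1 point per gene, coloured by call. The black bar is the median of the list in wild type and the orange triangle the median in Myc+/- adipose. Immune lists lie to the right of 0, fat metabolism and clock lists to the left. In both genotypes the medians of the interferon list almost coincide (0.73), while those of lipid-associated macrophage genes are 0.95 and 0.00.

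Adipocyte genes showed smaller differences in the other direction. Of 18 adipocyte markers, 0 rose and 2 fell, but 17 of the 18 read below 0, with a median of -0.44. Leptin (Lep), the hormone that reports fat stores, read 13.32, 13.34 and 13.36 at 5 months and 12.47, 12.55 and 12.24 at 24 months (-0.92 ± 0.14, 1.89-fold lower), and Gpd1, which makes glycerol phosphate for triglyceride, fell by 0.72. Adipoq (-0.24) did not pass the test, and Plin1 (-0.31) passed it below the fold (limma, adjusted p = 0.00271). The mean log2 level over the 18 markers was 12.76 to 12.80 on the 5-month arrays and 12.38 to 12.41 on the 24-month arrays.

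Of 24 genes of fatty acid and triglyceride synthesis, 8 fell and 0 rose (median -0.40). Scd2, a desaturase that makes monounsaturated fatty acids, read 12.56, 12.57 and 12.67 at 5 months and 11.59, 11.56 and 11.49 at 24 months (-1.06 ± 0.07). Mogat2 read 8.38, 8.25 and 8.25 against 6.66, 6.6 and 7.01 (-1.53 ± 0.14). The arrays of the ages were apart in both, as in 38.0% of all genes. Pnpla3, a lipid droplet acylhydrolase, fell by 1.04, Agpat2, which makes phosphatidic acid, by 0.84 and the malic enzyme gene Me1, a source of NADPH, by 0.74. The core lipogenic enzymes Fasn (-0.34), Acaca (-0.20) and Acly (-0.23) did not reach the fold.

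Of 12 genes of lipolysis 1 fell and 0 rose, or 3 fell with the arrays centred on their medians. This was Npr3, the clearance receptor for natriuretic peptides, which read 13.21, 13.18 and 13.26 at 5 months and 12.01, 12.06 and 12.03 at 24 months (-1.18 ± 0.06). The lipases Pnpla2 (-0.24), Lipe (-0.44) and Mgll (-0.54) did not reach the fold. Of 16 thermogenic fat genes, 2 rose (1 when dim genes were left out) and 0 fell. Ucp1, the uncoupling protein of brown fat, changed by 0.01, Ppargc1a by 0.33 and Prdm16 by -0.10. The elongase gene Elovl3 (0.90) and Kng2 (0.88) passed.

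Among 15 adipokines, 1 rose and 4 fell. The genes lower at 24 months were Nrg4, a growth factor that acts on the liver (-1.25 ± 0.09), Lep, the retinol carrier gene Rbp4 (-0.86) and Sfrp5, a secreted WNT inhibitor (-0.87). Lcn2 was the member that rose, and Retn changed by -0.15. Without 24-month array 1 the count higher was 2. Of 14 genes tied to fat expansion, 2 rose (1 when dim genes were left out) and 5 fell. Mest, an imprinted gene induced in growing adipocytes, fell by 0.90 and the imprinted zinc finger gene Plagl1 by 0.82, while the imprinted gene Peg3 rose by 0.84.

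Of 17 genes of insulin signalling and glucose use, 2 rose and 3 fell. Pdk4, which restrains glucose oxidation, read 10.81, 10.85 and 10.73 at 5 months and 12.08, 12.11 and 12.08 at 24 months (1.29 ± 0.07, 2.45-fold). Igfbp3, a carrier of IGF1, rose by 1.07. Besides Grb14, hexokinase 2 (Hk2) fell by 0.85 and Pck1, the enzyme of glyceroneogenesis, by 0.67. The receptor gene Insr (-0.26) and its substrates Irs1 (0.27) and Irs2 (-0.06) did not pass the fold.

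Genes of branched-chain amino acid breakdown, which feeds acetyl-CoA to lipogenesis in adipocytes, read lower for all 19 members measured, with a median of -0.40 and 3 past the fold. These were Pcca (-0.65) and Mccc1 (-0.61), carboxylases of the pathway, and Bckdhb (-0.59), a subunit of the dehydrogenase complex, whose call was lost without 5-month array 2 or 24-month array 2 and with the adipose arrays normalized again. The count was 5 without 5-month array 1. Bcat2 and Bckdha, the first steps, read -0.37 and -0.32. Of 34 genes of oxidative phosphorylation all read below 0, with a median of -0.23, and 1 fell past the fold (2 without 24-month array 2). This was the complex I subunit gene Ndufb3, from 9.97, 9.97 and 9.96 to 8.85, 8.92 and 8.76 (-1.13 ± 0.09). Normalizing the adipose arrays again kept all members of both lists below 0. Of all 19938 genes, 11205 read below 0 as deposited and 12131 after this normalization. Centring the arrays lowered every change by the same amount, so it could not bring a member above 0.

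Of 19 genes of fatty acid oxidation Pdk4 rose and 0 fell, with Cpt1a at 0.11, Cpt2 at -0.48 and Acadm at -0.22. Of 18 genes of cholesterol synthesis and uptake, 3 fell and 0 rose. These were Sc5d (-0.72), Nsdhl (-0.66) and Pmvk (-0.59), enzymes of the later or middle steps, while Hmgcs1 (-0.53), Sqle (-0.03) and Lss (-0.40) did not pass the fold. The call for Pmvk was lost without 5-month array 2, 24-month array 1 or 24-month array 2.

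The circadian clock is a loop in which BMAL1 (gene Arntl) and CLOCK bind E-box elements and drive their own repressors and output factors, whose levels swing over the day. Of 16 clock genes, 10 fell and 2 rose (median -0.70). Ciart, a repressor of CLOCK and BMAL1, read 9.07, 8.88 and 9.18 at 5 months and 6.71, 7.37 and 6.66 at 24 months (-2.13 ± 0.14, 4.38-fold lower). Dbp, an output factor, read 9.90, 9.92 and 9.94 against 8.34, 8.48 and 8.57 (-1.46 ± 0.09). The pools were apart on every array in both, which held for 38.0% of all genes. The repressors Bhlhe41, Per3 and Bhlhe40 fell by 1.39, 1.07 and 1.05. Arntl, which peaks opposite to them, read 7.90, 7.96 and 7.97 against 8.65, 8.65 and 8.53 (0.67 ± 0.10), and Nfil3, the competitor of Dbp, rose by 1.09. Clock (-0.21) and Per1 (-0.10) did not pass. The hour of collection was not given, so a difference in hour and a difference in rhythm cannot be told apart.

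The E-box letters CACGTG, which read the same on both strands, stood in the promoter window of 3 of the 9 falling clock genes that had one (33.3%), namely Ciart, Bhlhe41 and Tef, against 8.09% of 27025 genes. The D-box letters TTATGNAA, searched on both strands, stood in 1 of the 9 (11.1%), Per3, against 3.99%. The list was chosen for clock genes, so shares above those of all genes do not bear on the change with age. Members that did not fall were not searched, and a match of letters does not show binding. The windows of Ciart at chr3:95882179-95882478 (minus strand) and Bhlhe41 at chr6:145865371-145865670 (minus strand) in GRCm38.p6 are shown for the members with an E-box that fell most, with the E-box in capitals (3 in Ciart and 1 in Bhlhe41).
Ciart: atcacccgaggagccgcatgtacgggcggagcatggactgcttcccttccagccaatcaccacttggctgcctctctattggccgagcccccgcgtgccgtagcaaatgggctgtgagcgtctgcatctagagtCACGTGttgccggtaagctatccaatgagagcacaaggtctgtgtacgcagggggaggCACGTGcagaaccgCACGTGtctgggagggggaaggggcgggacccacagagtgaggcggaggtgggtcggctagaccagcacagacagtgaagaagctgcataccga
Bhlhe41: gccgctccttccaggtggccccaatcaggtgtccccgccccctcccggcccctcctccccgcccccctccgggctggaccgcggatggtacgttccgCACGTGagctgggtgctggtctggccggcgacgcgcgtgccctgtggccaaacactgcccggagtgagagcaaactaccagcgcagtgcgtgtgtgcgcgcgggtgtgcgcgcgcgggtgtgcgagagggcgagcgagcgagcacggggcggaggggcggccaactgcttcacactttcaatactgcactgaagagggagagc

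In other tissues of the same wild type mice, 11 of the 16 clock genes fell in liver, where 2.65% of all genes fell, and 5 in muscle, where 3.14% did. Ciart changed by -3.40 in liver and -1.19 in muscle, and Dbp by -3.05 and -0.97, beside -2.13 and -1.46 in adipose. In Myc+/- adipose, 5 of the 16 fell, where 1.51% of all genes did. Of the 8 genes lower with age in all 3 wild type tissues, Ciart, Dbp, Per3, Hlf and Bhlhe41 are clock genes, and Cspg4, Mtln and Prxl2b are the others.

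**Figure D4:**
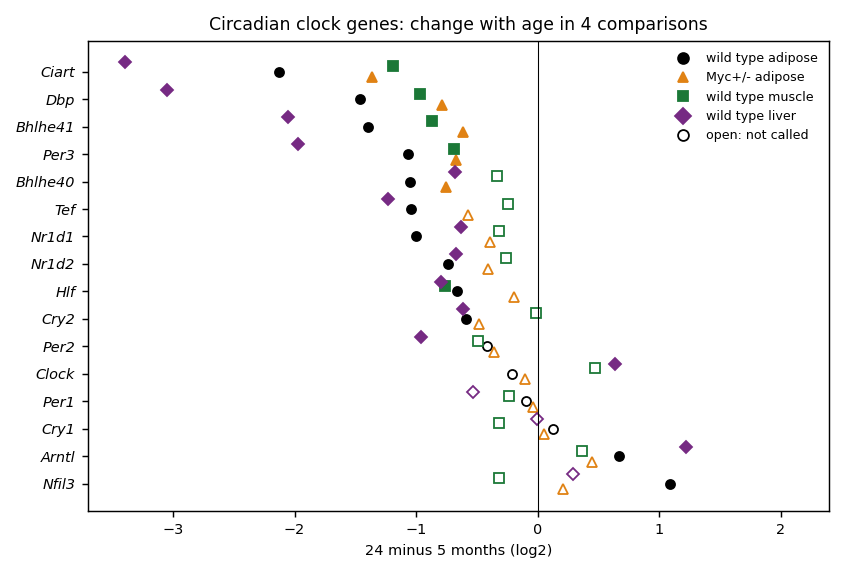
Change from 5 to 24 months (horizontal axis, log2) of the 16 clock genes in wild type adipose (black circles), Myc+/- adipose (orange triangles), wild type muscle (green squares) and wild type liver (purple diamonds); open symbols did not pass. Ciart and Dbp lie left of 0 in all 4 comparisons and Arntl right of 0 in all 4, called in wild type adipose and liver.

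Of 18 matrix proteases and inhibitors, 7 rose and 2 fell (1 without 24-month array 3). Timp1, an inhibitor of matrix proteases, rose by 1.58, the stromelysin gene Mmp3 by 1.09, the membrane protease gene Mmp14 by 1.00, the gelatinase genes Mmp2 and Mmp9 by 0.97 and 0.80. Of 29 collagen and matrix genes, 1 rose and 1 fell, near the shares of all genes (4.16% and 1.88%). The count lower was 2 without 5-month array 3 or 24-month array 3, and with the arrays centred on their medians. Col1a1 changed by 0.02, Col1a2 by 0.14 and Col3a1 by -0.01. The basement membrane collagen gene Col15a1 fell by 0.98 ± 0.09 and lumican (Lum), which spaces collagen fibrils, rose by 0.70.

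Markers of other cells of the tissue are given beside the 6.03% of all genes called in either direction. Of 20 endothelial markers 0 passed in either direction (limma, with 6 above and 14 below 0), with Pecam1 at 0.13, Cdh5 at -0.08 and Kdr at -0.34. Of 17 adipose progenitor markers 2 rose, Pdgfra (0.88) and Icam1 (0.76), and 1 fell, Sema3c (-0.64). Pdgfrb changed by 0.25 and Cd34 by -0.15. Of 14 mesothelial markers, which mark the lining of visceral fat, Wt1 rose (1.04), while Msln (-0.58), Upk3b (0.04) and Upk1b (0.21) did not pass. Without 5-month array 2 or 24-month array 1, 1 member was called lower.

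Of 19 proliferation genes 0 passed in either direction, although 18 read above 0 (median 0.24), with Mki67 at 0.23 and Top2a at 0.07. Of 16 senescence and p53 genes, 0 rose and Phlda3, a p53 target that restrains AKT, fell by 0.82. Cdkn2a, which encodes p16, changed by 0.28, Cdkn2b by -0.34 and Cdkn2c by -0.50, all short of the fold. Of 15 immediate early genes 4 rose, Atf3 by 0.99, Fos by 0.62, Egr1 by 0.59 and Myc by 0.59, but the count was 1 without 5-month array 3, 2 without 24-month array 3 and 1 with the arrays centred on their medians. Of 15 glucocorticoid targets 3 rose, the shared members Lcn2 and Pdk4 and the EGFR inhibitor gene Errfi1 (0.67), while Fkbp5 (0.33), Tsc22d3 (-0.17) and Sgk1 (0.38) did not pass. Of 19 genes of endoplasmic reticulum stress and heat shock 2 rose, Creld2 (0.77) and Sdf2l1 (0.69), and Hspa5, the BiP chaperone, read 0.42 higher.

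Myc itself, the gene altered in the other genotype, read 9.66, 9.88 and 9.56 at 5 months and 10.23, 10.47 and 10.17 at 24 months. The difference of 0.59 ± 0.09 lay just past the fold, and it was 0.50 to 0.57 and not called without 5-month array 1, 5-month array 3 or 24-month array 2, nor with the arrays centred on their medians. The 21 cytosolic ribosomal protein genes measured, known targets of MYC, all read higher, by 0.08 to 0.34 (median 0.24), and 0 reached the fold. They stayed above 0 with the arrays centred or normalized again. The 20 ribosome biogenesis genes had a median of -0.05 and 0 calls.

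Small nucleolar RNA genes, which guide the modification of ribosomal RNA, mostly lie in introns of other genes. Of 53 measured, 19 rose and 0 fell, with a median of 0.45, where 4.16% of all genes rose. Snord33 rose by 1.27, Snord35b by 1.15 and Snora44 by 1.09. In Myc+/- adipose these 3 changed by 1.05, 0.49 and 0.41. Snora44 changed by -1.87 in muscle and -2.72 in liver of the wild type mice. Terc, the RNA of telomerase, read 8.17 at 5 months and 9.49 at 24 months, a difference of 1.32 that passed. Of 297 microRNA genes 2 rose, Mir15a (0.81) and Mir224 (0.68), and 0 fell. These genes were named after their values were seen.

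Markers of organs other than fat were read as a check of the dissected tissue. Of 12 hepatocyte markers, 11 rose and 0 fell, and the mean log2 level over the list was 7.17 to 7.26 on the 5-month arrays and 8.15 to 8.19 on the 24-month arrays. Albumin (Alb) read 9.93 ± 0.06 at 5 months and 11.30 ± 0.03 at 24 months (mean ± SD, n = 3 arrays), a rise of 1.37 ± 0.13, and the plasma protein gene Ahsg rose by 1.46 and the apolipoprotein gene Apoa2 by 1.09. In Myc+/- adipose 1 of the 12 rose and 1 fell, and in wild type muscle all 12 fell, with a median of -2.0. The median level at 5 and 24 months was 6.94 and 8.30 in wild type adipose, and 8.52 and 8.12 in Myc+/- adipose. The 5-month wild type pool was thus the lowest of the adipose pools. Whether these transcripts came from the tissue or from other RNA was not tested.

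Of 25 sperm and testis genes, 8 rose (5 when dim genes were left out) and 0 fell, although the median of the list was 0.15. Smcp, a protein of the sperm mitochondrial sheath, read 5.79, 5.68 and 5.58 at 5 months and 7.63, 7.61 and 7.79 at 24 months (2.00 ± 0.12), and the protamine gene Prm1, which packs sperm DNA, read 7.48, 7.52 and 7.42 against 8.74, 8.78 and 7.82 (0.97 ± 0.14). The Prm1 arrays of 24 months differed by more than those of 5 months, and 24-month array 3 stood lowest. Of 29 epididymis genes 0 were called (1 without 24-month array 3), with a mean level of 5.55 to 5.59 and 5.52 to 5.6. Of 14 skeletal muscle markers 2 fell, Acta1 by 1.30 and Myl1 by 0.81, and 0 rose. Of 11 exocrine pancreas and 13 epidermal markers 0 were called. Of 13 kidney and adrenal markers 1 fell, Mc2r (-0.59), the ACTH receptor that adipocytes also express, and this call was lost without 5-month array 2 or 24-month array 1 and with the adipose arrays normalized again. Of 5 erythroid markers 1 fell, the carbonic anhydrase gene Car1 (-1.35). The part of these markers in the other results was not tested.

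The Myc+/- adipose pools came from other mice and other arrays, and so repeat the age comparison in a second genotype. There, 745 genes rose (3.74%) and 301 fell (1.51%), or 5.25% in either direction. Higher in both genotypes were 403 genes, 48.6% of those that rose in wild type and 54.1% of those in Myc+/-. Lower in both were 168, 44.9% and 55.8%. Opposite calls were made for 10 genes that rose in wild type and fell in Myc+/-, and for 0 the other way. Across all 19938 genes the changes correlated with Pearson's r = 0.67 and Spearman's rho = 0.59, given as a description, since genes are not independent.

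Testing the difference between the genotypes' age changes directly, against array-to-array error, the change was higher in wild type for 324 genes (1.63%) and lower for 255 (1.28%), or 2.90% in either direction. When dim genes were left out, the counts were 239 and 95. Of the lipid-associated macrophage genes, 8 of 14 had a larger change in wild type and 0 a smaller one. Their median level at 5 and 24 months was 9.28 and 11.35 in wild type, and 10.57 and 10.51 in Myc+/-. The Myc+/- pool thus read higher already at 5 months. At that age Gpnmb read 9.08 in wild type and 10.44 in Myc+/-, Trem2 8.15 and 8.80, and Mmp12 8.97 and 10.69. Gpnmb changed by 0.69 in Myc+/- and 2.70 in wild type, a difference of 2.02 (limma, adjusted p = 6.57e-13), and Trem2 by 0.62 and 2.20 (difference 1.58, adjusted p = 1.09e-11). Mmp12 changed by -0.81 and 1.74, thus in opposite directions. Macrophage markers differed the same way for 8 of 22, and inflammatory cytokines and chemokines for 10 of 25, with 0 the other way in both lists.

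For other immune lists the genotypes were closer or stood the other way. Of the interferon genes 16 rose in each genotype, with a median of 0.73 in both, and the change was smaller in wild type for 1 of 24 and larger for 0. Of the B and plasma cell markers 21 of 21 rose in Myc+/-, and the change was smaller in wild type for 5 and larger for 1, Ighm (3.54 in wild type and 1.94 in Myc+/-). The other probe sets of Ighm were split, with a difference of 1.78 that passed and of 0.31 that did not. Of the resident macrophage genes the change was smaller in wild type for 4 of 13 and larger for 0. Vsig4 changed by 3.45 in wild type and 3.47 in Myc+/- (difference -0.02, adjusted p = 0.981), and Cxcl13 by 3.59 and 3.32 (difference 0.27, adjusted p = 0.327).

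Of the genes of fatty acid and triglyceride synthesis, 2 of 24 fell and 3 rose in Myc+/-, and the change was lower in wild type for 5 and higher for 0. Of the clock genes it was lower in wild type for 4 of 16 and higher for 1. Hepatocyte markers changed more in wild type for 11 of 12, whereas 15 of 25 sperm and testis genes changed less, with Prm1 at 0.97 in wild type and 4.57 in Myc+/-. The median hepatocyte level differed mainly at 5 months, with 6.94 in wild type and 8.52 in Myc+/-, beside 8.30 and 8.12 at 24 months. The genotype differences of these lists of other organs therefore had opposite signs. Sperm and testis genes rose in both genotypes (8 of 25 in wild type and 16 in Myc+/-), and the Myc+/- median of the hepatocyte markers was -0.01. Of 29 epididymis genes, 7 rose and 2 fell in Myc+/- adipose, where 3.74% and 1.51% of all genes did. Their change was lower in wild type for 7 and higher for 2, beside 1.28% and 1.63% of all genes. The part of these markers in the differences above was not tested.

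**Figure D5:**
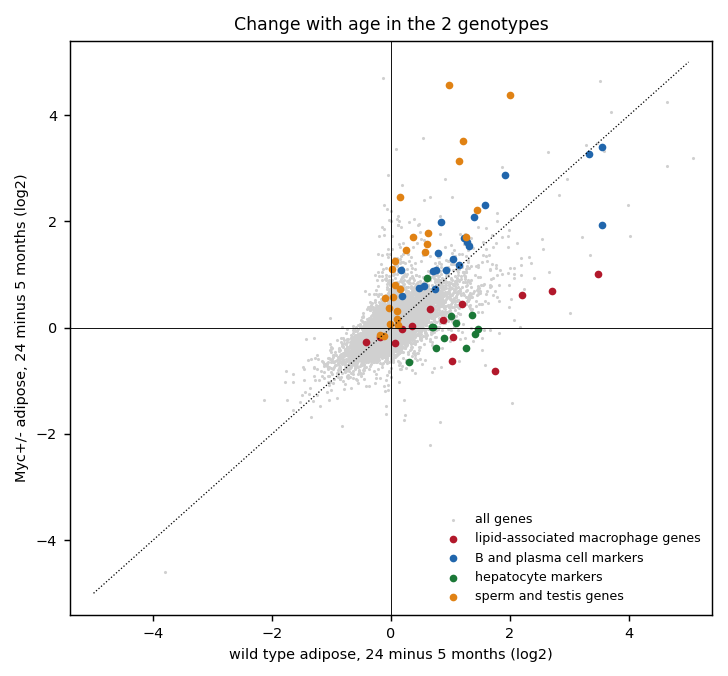
Change from 5 to 24 months in wild type adipose (horizontal axis, log2) and in Myc+/- adipose (vertical axis, log2), 1 grey point per gene, with 4 gene lists coloured; the dotted line marks equal change. Lipid-associated macrophage genes (red) and hepatocyte markers (green) lie mostly below the line, sperm and testis genes (orange) above it, and B and plasma cell markers (blue) along or above it.

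With the 3 arrays of each pool averaged, an age effect over both genotypes could be fitted with 2 pools per age. The error in this fit was the difference in age change between the genotypes, shared over the 3 tissues of the same mice. Its SE and adjusted p therefore do not measure the spread between mice. At the pool level 1438 genes rose (7.21%) and 1496 fell (7.50%) at an adjusted p under 0.05 with no minimum fold. With the arrays centred on their medians 1229 rose and 2177 fell. Of the genes that rose in wild type 670 of 829 passed in the same direction at the pool level, and of those that fell 319 of 374. Since the wild type pools are part of this fit, these counts are not independent of the first comparison. Jchain changed by 3.29 ± 0.08 (SE, adjusted p = 1.24e-05), Vsig4 by 3.46 ± 0.18 (adjusted p = 0.00045), Mogat2 by -1.46 ± 0.11 (adjusted p = 0.00113) and Ciart by -1.75 ± 0.18 (adjusted p = 0.00257). Saa3 (2.35 ± 0.69, adjusted p = 0.0632), Rgs1 (1.64 ± 0.52, adjusted p = 0.0768) and Mmp12 (0.46 ± 0.50, adjusted p = 0.595) did not pass. Of the hepatocyte markers 0 of 12 passed, of the sperm and testis genes 10 of 25, of the branched-chain amino acid genes 15 of 19, all lower, and of the oxidative phosphorylation genes 11 of 34, all lower.

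In muscle of the same wild type mice 842 genes rose (4.22%) and 627 fell (3.14%), and in liver 1385 rose (6.95%) and 528 fell (2.65%). Of the genes that rose in adipose, 17.2% also rose in muscle and 44.8% in liver, which were 17% and 26.8% of the genes that rose there. Of those that fell, 4.81% also fell in muscle and 7.75% in liver, or 2.87% and 5.49% of the falls there. Across genes the adipose change correlated at r = 0.07 with muscle and 0.29 with liver. The 112 genes higher in all 3 tissues include Igha (3.54 in adipose, 2.15 in muscle and 2.71 in liver), Cxcl13 (3.59, 2.26 and 2.77) and Ccl5 (2.18, 1.92 and 1.96). All these comparisons use pools of the same mice.

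The difference between tissues was tested against array-to-array error. The age change was higher in adipose than in muscle for 1372 genes (6.88%) and lower for 1462 (7.33%), and higher than in liver for 988 (4.96%) and lower for 1591 (7.98%). With the arrays centred on their medians the counts against muscle were 1112 and 1810. Macrophage markers rose more in adipose than in muscle for 17 of 22 (0 less), but more than in liver for 3 and less for 2. B and plasma cell markers rose more than in muscle for 9 of 21 and than in liver for 13, with 0 less in either. Neutrophil and monocyte genes rose less in adipose than in liver for 7 of 14. Adipocyte markers rose in muscle for 13 of 18 (median 1.05), and all 13 epidermal markers rose there too. In turn, 15 adipocyte markers changed less in adipose than in muscle. The part of these markers in the comparison with muscle was not tested.

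The genes nearest the 1.5-fold line were Rasal3 (0.59) and Adap1 (-0.59) inside it and Frmd6 (0.58) and Sidt1 (0.58) outside it, and the calls of Rasal3 and Adap1 were lost when 1 array was left out, and that of Rasal3 also with either rescaling of the arrays.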

How the data were processed

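Expression was measured on Affymetrix Mouse Gene 1.0 ST arrays, 36 in all, as 12 RNA pools of 3 technical arrays each. Each deposited file gives log2 values for the probe sets. The submitters' processing notes list Affymetrix Expression Console and RMA, and no version was given. The labels' protocols name kits of both 3' and whole-transcript labelling and 2 ways of homogenizing tissue, without tying either to samples. The values were used as deposited.

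Gene names came from the platform annotation (23410 probe sets listed, 21789 with 1 symbol, 1621 with several). The Entrez identifiers of 21698 were found in a RefSeq table (GRCm38.p6), which changed 0 symbols. For the 999 genes with several probe sets, the probe set brightest on average over the 12 adipose arrays was taken. limma (version 3.58.1 in R 4.3.3) was fitted to all 36 arrays with 12 group means and an intensity trend (24 residual and 13.1 prior degrees of freedom). Calls needed an adjusted p under 0.05 and a 1.5-fold change. ± after a change is the SE of that fit, or of the pool-level fit where stated, which used the 12 pool means with tissue, and age and genotype within tissue (3 residual and 4.18 prior degrees of freedom). The precision is limited by the number of arrays and of pools, not by depth. No replicate block was used. The fits were tested on simulated data.

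The comparison, the 43 gene lists (850 entries, 770 matched, 7 of them through a synonym) and the rules were chosen with earlier results of these data known. Genes named were the 20 largest changes in each direction, the first 3 members and the 5 largest called members of each list, 5 per direction for each difference of changes, Myc, and the genes nearest the fold line. Genes named as the few that missed a call, the few called in a class, or those with overlapping tissues or promoter matches were chosen after their values were seen. A list is described by its counts and, for some lists, by its median. The shares of all genes called in wild type adipose (4.16% higher and 1.88% lower) are not repeated beside every count. Some genes stand in several lists. Alternatives tried were leaving out dim genes (mean under the 40th percentile), 2-fold, median centring, a second quantile normalization, a replicate block, no intensity trend, fewer arrays or pools, each array left out, separation of the arrays with no model, and the median over the probe sets of a gene.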

Additional observations from a re-analysis of the deposited data

Results flagged for a closer look

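Probe sets without exactly 1 gene symbol, 13767 in all, were outside the comparison. Of these, 379 were higher and 107 lower at 24 months in wild type adipose by the same call, and they are not named here.

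The test of the difference in age change between wild type and Myc+/- adipose, against array-to-array error, gave 324 genes with a higher and 255 with a lower change in wild type. The largest differences upward (log2) were Saa2 at 3.44, Gpr50 at 2.86, Rgs1 at 2.72, Hamp at 2.59 and Mmp12 at 2.56. Hepcidin (Hamp), the iron hormone of the liver, and Gpr50 changed in wild type by 0.82 and 0.65, calls that were lost without 1 array, and in Myc+/- by -1.78 and -2.21. At 5 months Saa2 read 4.97 in wild type and 7.40 in Myc+/-, and Hamp 6.30 and 8.86. At 24 months Saa2 read 6.99 and 5.99, and Hamp 7.12 and 7.08. The largest differences downward were Spink8 at -4.84, Prm1 at -3.60, Serpina1f at -3.28, Pcp4 at -3.03 and Defb26 at -2.93. Of these 5, only Prm1 changed past the threshold in wild type adipose. The part of transcripts of other organs in these differences was not tested.

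Between adipose and muscle of the wild type mice, the age change was higher in adipose for 1372 genes and lower for 1462. Serpina1c (5.79), Fabp1 (4.36), Apoa2 (4.28), Hamp (4.09) and Ahsg (3.95), transcripts abundant in liver, led upward, and they rose in adipose by 0.82 to 1.46 while they changed in muscle by -4.35 to -2.49. Rnase2a (-4.99), Serpina3b (-4.06), Pck1 (-3.30), Elovl4 (-3.15) and Nrg4 (-2.91) led downward.

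Between adipose and liver, the change was higher in adipose for 988 genes and lower for 1591. The small nucleolar RNA genes Snora44 (3.80), Snora74a (3.72) and Snord15b (3.38) and the immune genes Ccl8 (3.66) and Igkv5-43 (3.5) led upward. Snora44 and Snord15b changed by 1.09 and 0.95 in adipose and by -2.72 and -2.43 in liver. Ccl8 and Igkv5-43 changed by 3.97 and 4.02 in adipose and by 0.31 and 0.52 in liver. Slc22a26 (-5.0), Orm3 (-4.97), Dmbt1 (-4.60), Sult3a1 (-4.28) and Orm2 (-3.54) led downward. Slc22a26, Dmbt1 and Sult3a1 changed by -0.05 to 0.06 in adipose, so their difference came from the change in liver.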

How the results depend on the processing

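Of the genes named for wild type adipose, 168 were called. The 2-fold threshold ended the call for 67 and leaving out 1 array for 11. Centring or a second normalization ended it for C4b, which no left-out array did, and the other 156 kept it wherever they were tested among the left-out arrays, the rescalings, the filter on dim genes, the block, the fits without trend and the fits on fewer arrays. Separation of the arrays and the median over probe sets were not counted here, and the arrays of the ages overlapped for Hamp and Cxcr5. No called gene changed sign in the alternatives counted. Leaving out 1 array gave 809 to 856 genes higher and 353 to 409 lower. Arrays of the same number did not deviate together (r = 0.10, 0.09 and -0.17), and a replicate block of these numbers left 829 higher and 374 lower, and it moved no other count over all genes by more than 1.5 times. At 2-fold the counts were 319 and 69, for wild type minus Myc+/- 101 and 93, for adipose minus muscle 415 and 453, and for adipose minus liver 256 and 378. Testing only genes above the 40th percentile, which removes dim genes, left 95 lower for wild type minus Myc+/-. At the pool level, the 4 adipose pools alone gave 876 lower, leaving out the wild type pools 569 higher and 270 lower, leaving out the Myc+/- pools 785 and 519, and a 1.5-fold minimum 619 and 243. These last fits use fewer pools or a stricter call. With 1 pool per age, the number of arrays does not bear on the spread between mice.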

Other observations

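Trdn, which encodes triadin of the muscle calcium release complex, was noticed after its values were seen. It has 19 probe sets on the array, and 13 of them were higher and 0 lower at 24 months in wild type adipose, with differences from -0.11 to 3.19 (log2). In Myc+/- adipose 0 of the 19 were called (limma), with differences from -0.41 to 0.58. The probe set that represents the gene read 8.25 at 5 months and 9.80 at 24 months in wild type adipose, a difference of 1.55, and changed by -0.02 in muscle and -0.12 in liver of the same mice. The 14 skeletal muscle markers did not rise in the same pool.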
